A study of Solanum lycopersicum with 12 samples.

Results

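The 163 genes described here encode, by their annotation, the enzymes that turn phenylalanine into phenylpropanoids, flavonoids and lignin precursors in tomato fruit. They were chosen by annotation: the protein annotation of each of the 22827 genes in the deposited table was searched for 14 enzyme or product names (phenylalanine ammonia, 4-coumarate, cinnamate, cinnamoyl, cinnamyl, caffeoyl, caffeic, shikimate O-hydroxycinnamoyl, chalcone, flavon, anthocyani, dihydroflavonol, leucoanthocyanidin and laccase), and peroxidases were left out. The rule reads annotation words, not expression values, though it was set with earlier results of these data known. Of the 163 members, 2 were among the 1153 genes newly assembled by the authors. The files place 53 members in a KEGG pathway, 40 of them in phenylpropanoid biosynthesis (ko00940) and 23 in flavonoid biosynthesis (ko00941).

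The fruits came from Micro-Tom, a dwarf tomato, and were taken whole at 5 days post-anthesis (DPA) with the developing seeds inside. The 3 transgenic groups, VvSUC11-OE, VvSUC12-OE and VvSUC27-OE, carried 1 of 3 grapevine (Vitis vinifera) sucrose transporter genes each behind the constitutive 35S promoter, and the WT carried none, with 3 libraries in each of the 4 groups. Each transgenic genotype was represented by its line 5 alone, VvSUC11-OE and VvSUC12-OE in the T1 and VvSUC27-OE in the T0 generation. The effect of a transgene therefore cannot be told apart from that of its line, nor, for VvSUC27-OE, from that of the generation. The grapevine transcripts themselves were not analysed here. The study describes the libraries of a group as independent biological replicates, how many plants or fruits each held is not given in the sources used here, and the p-values measure the spread between these libraries. Whole fruits were ground, so fewer cells of a type and less RNA per cell cannot be told apart.

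Phenylalanine ammonia-lyase (PAL) removes the amino group of phenylalanine, cinnamate 4-hydroxylase (C4H) adds a hydroxyl group, and 4-coumarate-CoA ligase (4CL) activates the product. From there one branch runs through shikimate esters, methylations and reductions to the monolignols, which laccases oxidise into lignin. In the other branch chalcone synthase (CHS) builds the flavonoid skeleton, chalcone isomerase (CHI) closes its ring, and hydroxylases and flavonol synthase (FLS) lead to the flavonols, which accumulate in the tomato fruit skin. Dihydroflavonol reductase (DFR) and anthocyanidin synthase (ANS) open the way to anthocyanins and, through leucoanthocyanidin reductase (LAR) and anthocyanidin reductase (ANR), to the proanthocyanidins that plants commonly lay down in seed coats.

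2 scales are used. Levels are FPKM, fragments scaled to transcript length and to the mapped fragments of the library, which take the length of a gene into account. Differences are log2 fold changes (log2FC) fitted by limma on log2(scaled count + 1), where the scaled counts are the authors' counts after they had been brought to a common library size and rounded. A gene was tested where at least 3 of the 6 libraries compared had 10 scaled counts, and it is said below to have risen or fallen where the Benjamini-Hochberg adjusted p over all tested genes was under 0.01 and the log2FC was beyond 1 in either direction. Scaled counts summed to between 20530052 and 21795363 per library. Among genes with high scaled counts, squared differences between replicates were at the median 1.64 to 2.72 times those expected from counting error. Between libraries of different groups they were 9.22 to 29.3 times those expected. Of the members, 31 never reached 10 scaled counts in any library, and 128 could be tested in at least 1 comparison with the WT. A rare gene that is high in 1 group alone passes this filter only in comparisons with that group, where a difference is then likely. Numbers tested and called differ between comparisons partly for that reason.

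The members together held 0.457 to 0.480% of the scaled counts in VvSUC11-OE libraries, 0.359 to 0.362% in VvSUC12-OE libraries and 0.594 to 0.620% in VvSUC27-OE libraries, against 0.324 to 0.332% in WT libraries. The 4 ranges did not overlap, and the WT had the lowest. Summed over all members, the level was 3786 ± 152 FPKM in VvSUC11-OE fruits, 2892 ± 19.1 FPKM in VvSUC12-OE fruits and 5099 ± 104 FPKM in VvSUC27-OE fruits, against 2573 ± 37.7 FPKM in WT fruits (SD, n = 3 each). CHS and FLS, with 12 members between them, had the highest summed levels of the classes in VvSUC27-OE fruits.

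**Figure D1:**
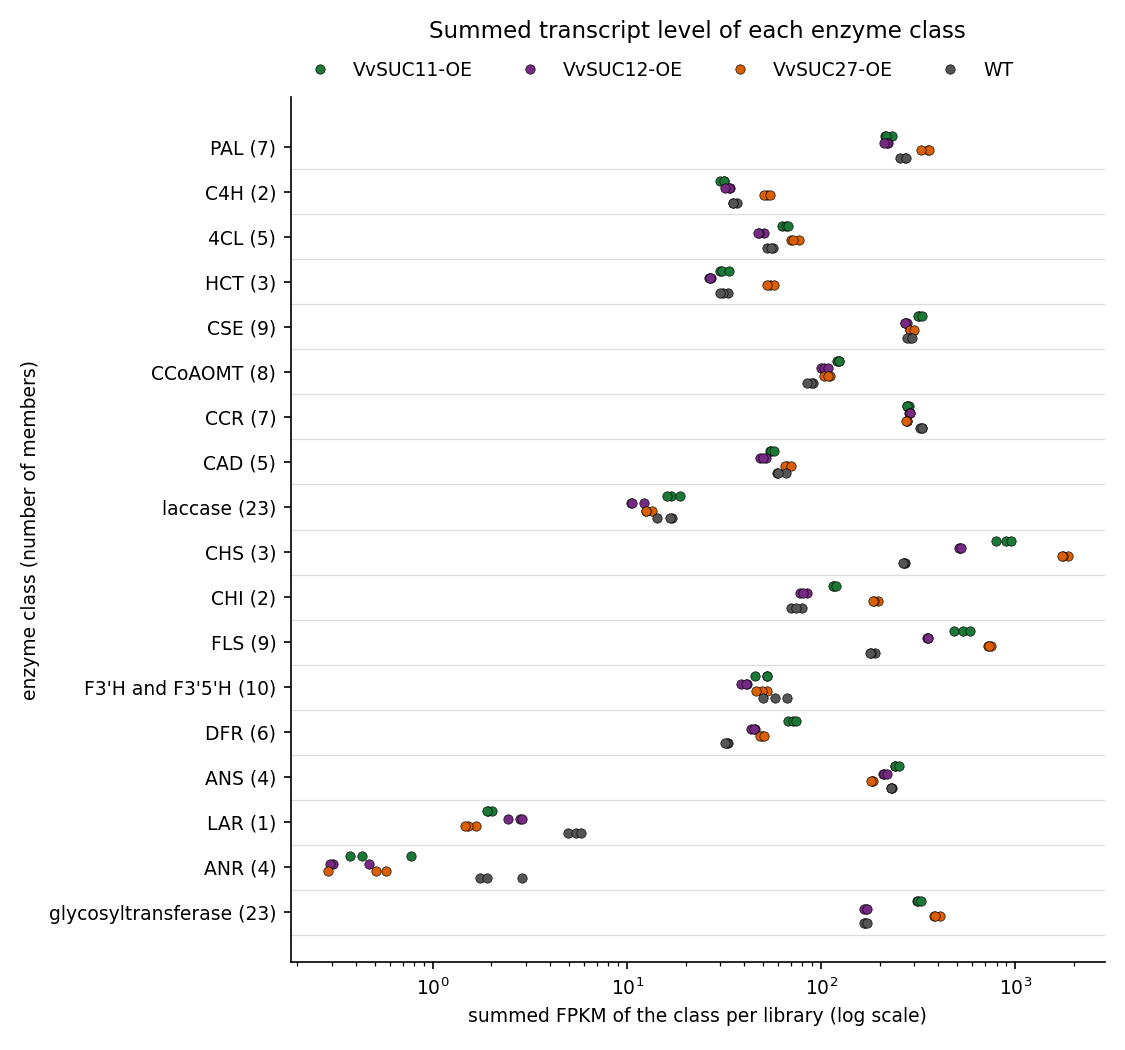
Summed FPKM of each enzyme class in each of the 12 libraries, on a log axis, with the number of members in parentheses; every dot is 1 library. CHS reached 1790 ± 64.2 FPKM in VvSUC27-OE fruits, against 266 ± 4.04 FPKM in WT fruits, while LAR and ANR lay lower in each transgenic group than in the WT.

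In VvSUC11-OE fruits 23 of 127 tested members rose (18.1%) and 22 fell (17.3%). Over all tested genes of that comparison, 7.39% rose and 7.33% fell. In VvSUC12-OE fruits 7 of 121 rose (5.79%) and 19 fell (15.7%), against a background of 3.31% higher and 5.3% lower. In VvSUC27-OE fruits 13 of 121 rose (10.7%) and 19 fell (15.7%), against 3.8% and 7.21% of all tested genes. All 6 shares of members were above those of all tested genes, while the median log2FC of the members against the WT was 0.05 for VvSUC11-OE, -0.15 for VvSUC12-OE and 0.11 for VvSUC27-OE, where that of all tested genes was -0.03, -0.01 and 0.00. These 3 comparisons share the WT libraries, so a member called in several lines was not called independently, and the values of the lines are given side by side. In all, 54 members were called in at least 1 line and 74 tested members in none. The shares of all tested genes given here are the background for every count of a class or list below.

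**Figure D2:**
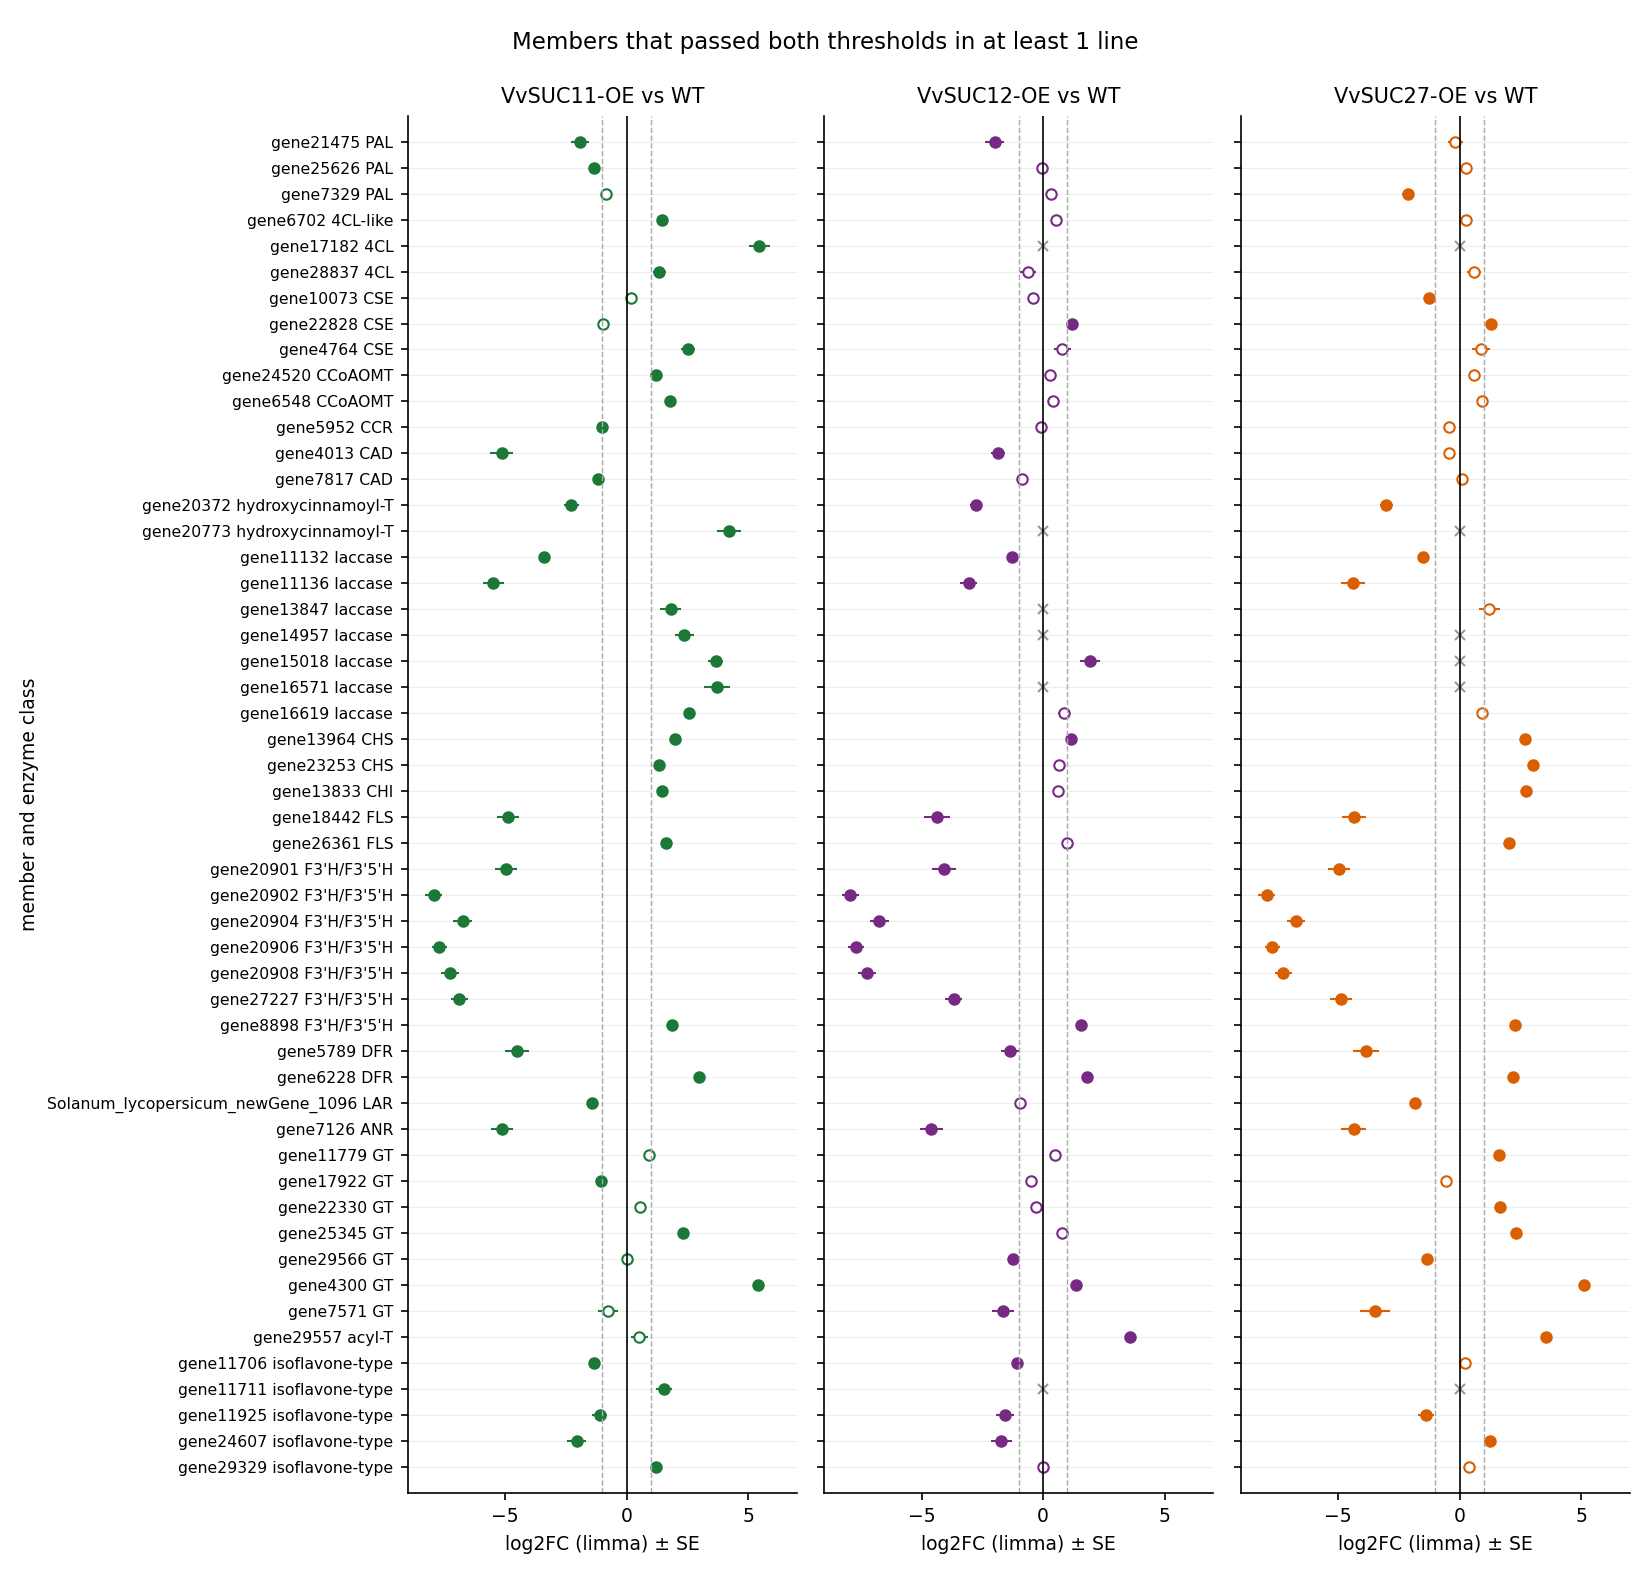
Fitted log2FC (limma, ± SE) of 52 of the 54 members called in at least 1 line, with 1 panel for each line against the WT; filled circles passed both thresholds, open circles did not, crosses were not tested, and dashed lines mark a log2FC of 1 and -1. The called CHS and CHI genes, the strong FLS (gene26361) and the F3'H gene8898 lie to the right in each panel. The other called members annotated as hydroxylases of the flavonoid ring, most of them only F3'H-like, lie far to the left.

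Among the enzymes that supply all branches, PAL, C4H, 4CL and the 4CL-like enzymes, 3 of 19 tested members rose and 2 fell in VvSUC11-OE fruits, and 0 of 18 rose and 1 fell in each of the other lines. Over all tested genes 7.39% rose and 7.33% fell in VvSUC11-OE, 3.31% and 5.3% in VvSUC12-OE, and 3.8% and 7.21% in VvSUC27-OE fruits, and each of these counts is within 2 members of such a share. The PAL gene with the highest mean level (gene21476) had 113, 90.6 and 102 FPKM in VvSUC11-OE fruits, 76.5, 76.9 and 72.2 FPKM in VvSUC12-OE fruits and 138, 145 and 121 FPKM in VvSUC27-OE fruits, against 102, 86.4 and 106 FPKM in WT fruits. It passed the fold threshold in no line, with log2FC of 0.13, -0.48 and 0.42. A further PAL gene, gene25626, stood apart in one line: it had 25.8, 27.9 and 25.7 FPKM in VvSUC11-OE fruits, 63.5, 67.1 and 63.3 FPKM in VvSUC12-OE fruits and 80.4, 78.4 and 77.9 FPKM in VvSUC27-OE fruits, against 68.0, 65.4 and 64.6 FPKM in WT fruits. All VvSUC11-OE libraries lay below all others, and the log2FC against the WT was -1.33 (SE 0.042, limma adjusted p = 1.19e-12).

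PAL gene7329 showed another order. It had 2.57, 1.92 and 3.16 FPKM in VvSUC11-OE fruits, 5.51, 5.04 and 6.73 FPKM in VvSUC12-OE fruits and 1.53, 0.625 and 1.02 FPKM in VvSUC27-OE fruits, against 3.94, 4.90 and 4.52 FPKM in WT fruits. The VvSUC27-OE libraries were the lowest without overlap, with a log2FC of -2.13 against the WT (SE 0.25, limma adjusted p = 1.1e-06), while -0.83 for VvSUC11-OE and 0.34 for VvSUC12-OE did not pass. The weakly transcribed gene21475, at most 0.576 FPKM in any library, fell in VvSUC11-OE and VvSUC12-OE fruits with log2FC of -1.91 and -1.98. Summed over the 7 PAL genes, the level was 220 ± 10.7 FPKM in VvSUC11-OE, 216 ± 5.80 FPKM in VvSUC12-OE and 347 ± 17.0 FPKM in VvSUC27-OE fruits, against 265 ± 10.4 FPKM in WT fruits (SD, n = 3 each).

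C4H, the P450 that follows PAL, had 33.5, 34.0 and 34.3 FPKM for gene16649 in VvSUC27-OE fruits and between 16.9 and 19.0 FPKM in every other library. The VvSUC27-OE libraries did not overlap with the rest, yet the log2FC of 0.94 against the WT (SE 0.051, limma adjusted p = 3.21e-11) stayed under the fold threshold, and those of VvSUC11-OE (0.05) and VvSUC12-OE (-0.01) were near 0. The main 4CL gene, gene9138, had between 30.4 and 45.7 FPKM over all libraries and was called in no line. A minor isoform annotated as 4CL2, gene17182, had 0.980, 1.21 and 1.49 FPKM in VvSUC11-OE fruits and was listed at 0 in all WT libraries. Its scaled counts of 35, 43 and 52 in VvSUC11-OE fruits were at least 14.4-fold higher than a floor of 3 per WT library (limma adjusted p = 3.26e-08). The other lines had 6 to 11 scaled counts of it and were not tested. In VvSUC11-OE fruits gene28837 (4CL) and gene6702 (4CL-like) also rose, with log2FC of 1.35 and 1.46. The 4CL-like gene27373, the highest of its class, had 48.7 to 52.5 FPKM in VvSUC11-OE, 29.1 to 31.0 FPKM in VvSUC12-OE and 23.7 to 25.9 FPKM in VvSUC27-OE fruits, against 30.0 to 32.9 FPKM in WT fruits, and was called in no line.

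The first steps of the flavonoid branch were where the largest amounts of transcript differed. CHS2 (gene13964) had 532, 612 and 631 FPKM in VvSUC11-OE fruits, 329, 325 and 332 FPKM in VvSUC12-OE fruits and 961, 934 and 898 FPKM in VvSUC27-OE fruits, against 145, 144 and 142 FPKM in WT fruits. No 2 groups overlapped, and the levels ran from VvSUC27-OE over VvSUC11-OE and VvSUC12-OE to the WT. The mean level was 4.13 times that of the WT in VvSUC11-OE fruits, 2.29 times in VvSUC12-OE fruits and 6.49 times in VvSUC27-OE fruits. The log2FC were 1.99 (SE 0.044, limma adjusted p = 2.9e-14), 1.14 (SE 0.027, adjusted p = 2.61e-16) and 2.69 (SE 0.032, adjusted p = 6.61e-20).

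The second strong CHS gene, CHS1B (gene23253), had 245, 265 and 293 FPKM in VvSUC11-OE fruits, 168, 168 and 169 FPKM in VvSUC12-OE fruits and 888, 823 and 829 FPKM in VvSUC27-OE fruits, against 104, 102 and 100 FPKM in WT fruits. The groups kept the order of CHS2 without overlap, and the step to VvSUC27-OE was wider: the log2FC were 1.34 (SE 0.045, limma adjusted p = 2.16e-12), 0.65 (SE 0.03, adjusted p = 2.8e-12) and 3.04 (SE 0.033, adjusted p = 3.33e-20), of which that of VvSUC12-OE was under the fold threshold. The sequences of both genes may be alike enough to share reads, and how the counting treated such reads is not given in the sources used here. Another CHS gene, gene3630, did not follow them. It had 19.4 to 21.7 FPKM in VvSUC11-OE, 21.0 to 22.4 FPKM in VvSUC12-OE and 11.8 to 12.3 FPKM in VvSUC27-OE fruits, against 20.5 to 21.2 FPKM in WT fruits, and was called in no line.

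Of the genes annotated as CHI, the next enzyme, 1 followed CHS and 1 did not. The gene annotated as probable CHI 3 (gene13833) had 48.1, 50.5 and 51.2 FPKM in VvSUC11-OE fruits, 28.4, 28.5 and 26.9 FPKM in VvSUC12-OE fruits and 126, 118 and 115 FPKM in VvSUC27-OE fruits, against 20.3, 14.9 and 17.6 FPKM in WT fruits. All 4 groups were separate. It rose with log2FC of 1.45 in VvSUC11-OE (SE 0.093, limma adjusted p = 3.24e-09) and 2.75 in VvSUC27-OE fruits (SE 0.08, adjusted p = 5.37e-15), and had 0.62 in VvSUC12-OE fruits. The more evenly expressed CHI gene12663 lay between 49.1 and 70.9 FPKM in all libraries and was called in no line. It is matched to CHI1 and placed in flavonoid biosynthesis by KEGG, and gene13833 has neither assignment. Whether gene13833 carries out the CHI step was not tested.

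Flavanone 3-hydroxylase (F3H), which acts after CHI, has an annotation that holds none of the 14 words and was read from a list of neighbouring pathway steps. F3H (gene5689) had 145, 165 and 169 FPKM in VvSUC11-OE fruits, 101, 98.1 and 101 FPKM in VvSUC12-OE fruits and 303, 295 and 294 FPKM in VvSUC27-OE fruits, against 48.5, 41.1 and 40.3 FPKM in WT fruits. It rose in each line, by 1.86, 1.16 and 2.78 on the log2 scale. FLS, which makes the flavonols, was dominated by gene26361 (annotated as flavonol synthase/flavanone 3-hydroxylase), which had 480, 530 and 581 FPKM in VvSUC11-OE fruits, 346, 349 and 352 FPKM in VvSUC12-OE fruits and 746, 718 and 730 FPKM in VvSUC27-OE fruits, against 183, 174 and 172 FPKM in WT fruits. The 4 groups were again separate and in the order of CHS2. Its log2FC were 1.62 (SE 0.046, limma adjusted p = 3.12e-13), 0.98 (SE 0.028, adjusted p = 2.98e-15) and 2.05 (SE 0.028, adjusted p = 3.89e-19). The value of VvSUC12-OE was short of the fold threshold by little, and once library totals were made equal it was 1.02 and passed.

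**Figure D3:**
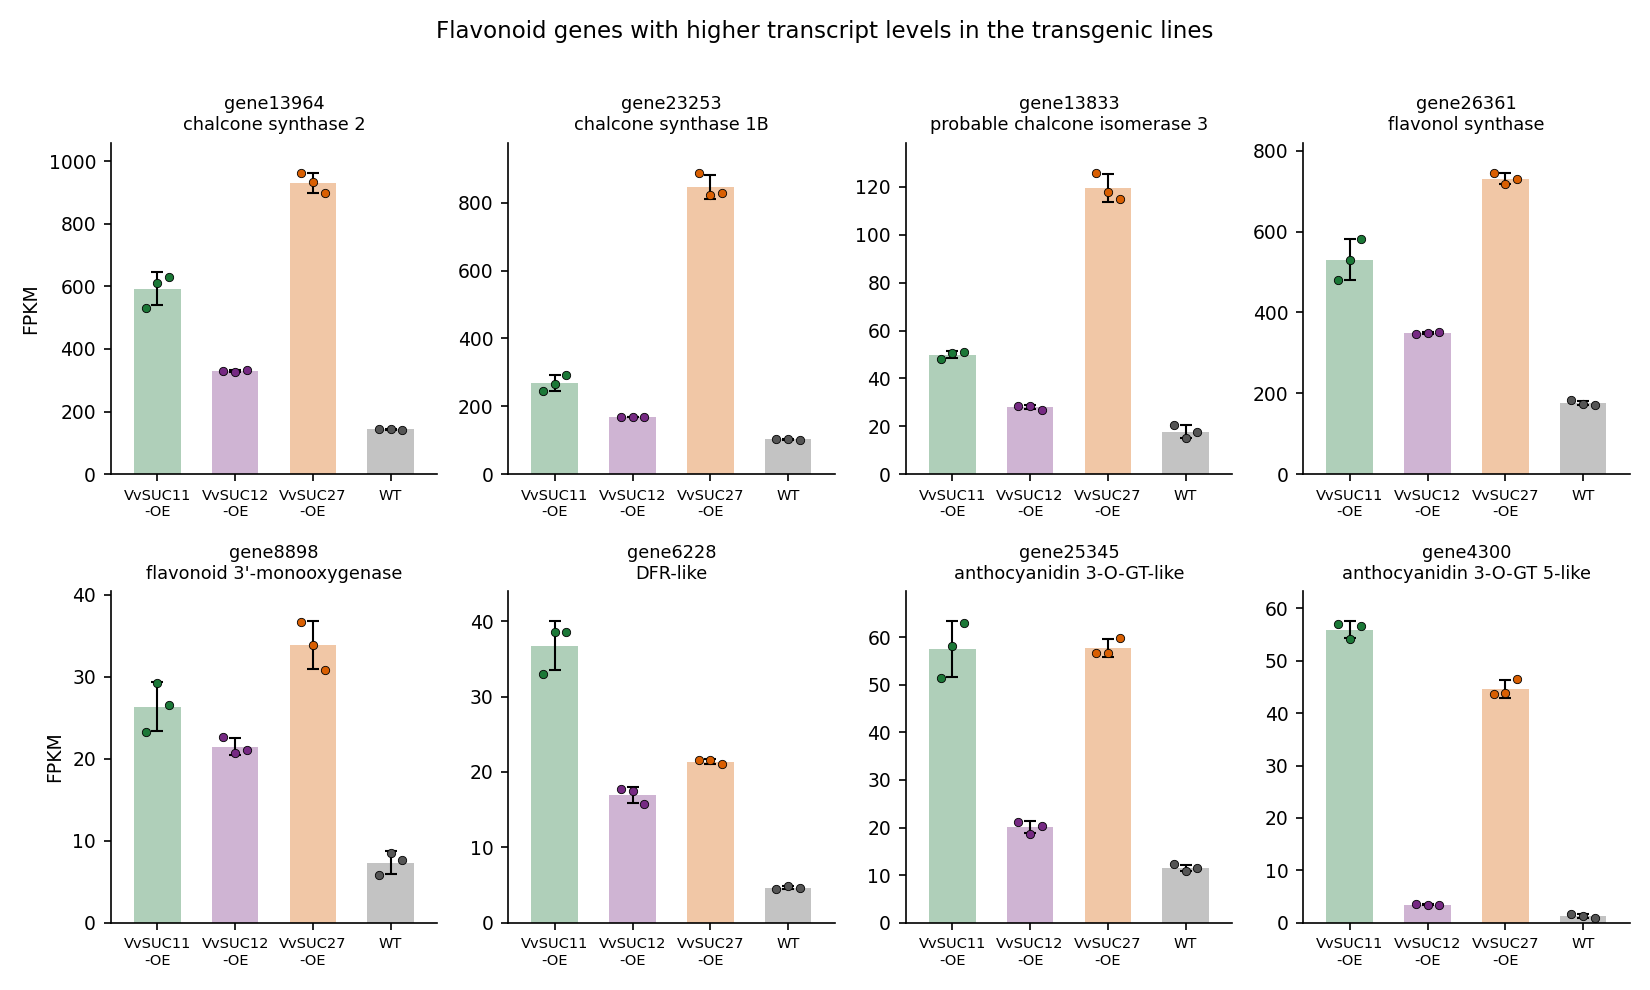
FPKM of 8 flavonoid genes in fruits of the 3 transgenic lines and the WT; bars are means, error bars the SD over 3 libraries, and dots the libraries. For CHS2 (gene13964), CHS1B (gene23253), CHI 3 (gene13833) and FLS (gene26361) the VvSUC27-OE bar is the tallest and the WT bar the lowest, with CHS2 between 898 and 961 FPKM in VvSUC27-OE fruits and 142 and 145 FPKM in WT fruits.

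Genes annotated as hydroxylases of the flavonoid B ring moved in opposite directions. Flavonoid 3'-hydroxylase (F3'H, gene8898), which turns kaempferol-type into quercetin-type compounds, had 23.3, 29.2 and 26.6 FPKM in VvSUC11-OE fruits, 22.6, 20.6 and 21.1 FPKM in VvSUC12-OE fruits and 36.7, 33.9 and 30.9 FPKM in VvSUC27-OE fruits, against 5.82, 8.54 and 7.61 FPKM in WT fruits. Every transgenic library was above every WT library. It rose in each line, with log2FC of 1.88 (SE 0.13, limma adjusted p = 8.91e-09), 1.55 (SE 0.12, adjusted p = 5.43e-09) and 2.26 (SE 0.12, adjusted p = 2.1e-11).

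Of the 9 tested members of this class, gene8898 was the 1 that rose and 6 fell in each line. 5 of the 6 are annotated as F3'H-like and carry identifiers between gene20901 and gene20908. These 5 are placed in no KEGG pathway, while gene8898 and the sixth, gene27227, are placed in flavonoid biosynthesis. Whether the 5 hydroxylate flavonoids was not tested. In WT fruits gene20902 had 7.80, 11.2 and 5.34 FPKM from 245, 354 and 167 scaled counts, and it was listed at 0 on both scales in all 9 transgenic libraries. Against a floor of 3 scaled counts per library it was at least 85.1-fold lower in each line (limma adjusted p between 1.15e-12 and 3.78e-11). Its relatives behaved alike. Scaled counts were 0 in all 9 transgenic libraries for gene20904, against 112, 139 and 78 in WT fruits, for gene20906, against 212, 252 and 167, and for gene20908, against 166, 204 and 101. These 3 genes were at least 36.6-fold, 70.1-fold and 52.3-fold lower. The weaker gene20901 had 2, 0 and 1 scaled counts in VvSUC12-OE fruits and 0 in the other transgenic libraries, against 30, 39 and 23 in WT fruits, and was at least 10.2-fold lower.

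A further member in the run, gene20903, was too rare to be tested, with 0 to 2 scaled counts in the transgenic libraries, against 2, 9 and 9 in WT fruits. Just outside the run by identifier, gene20897, also annotated in this class, had 21.4 ± 1.64 FPKM in VvSUC11-OE fruits, 17.0 ± 0.683 FPKM in VvSUC12-OE fruits and 13.7 ± 0.503 FPKM in VvSUC27-OE fruits, against 21.3 ± 0.950 FPKM in WT fruits (SD, n = 3 each), and was called in no line. Reads of such similar genes may have been split among them by the counting, so values of single copies are uncertain, and a fold against libraries at 0 rests on the WT libraries alone. Among the WT libraries, replicate 3 was the lowest for each of the 5 genes, and leaving it or any other library out ended none of these calls.

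Flavonoid 3'5'-hydroxylase (F3'5'H, gene27227), which leads to the delphinidin-type pigments, was the other member of the class that fell. It had 0, 0.0285 and 0 FPKM in VvSUC11-OE fruits, 0.139, 0.252 and 0.538 FPKM in VvSUC12-OE fruits and 0.0572, 0.295 and 0.0859 FPKM in VvSUC27-OE fruits, against 3.98, 2.87 and 3.56 FPKM in WT fruits. All transgenic libraries were below all WT libraries. In VvSUC11-OE fruits, where its scaled counts were 0, it was at least 39.7-fold lower (limma adjusted p = 2.56e-10), and the log2FC was -3.67 in VvSUC12-OE (SE 0.35, adjusted p = 7.23e-08) and -4.88 in VvSUC27-OE fruits (SE 0.45, adjusted p = 5.65e-08). A weak copy annotated as FLS, gene18442, was also low, with 22, 35 and 30 scaled counts in WT fruits and 0 to 2 in the transgenic libraries. It was at least 9.67-fold lower in each line.

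Genes annotated as DFR, which reduces dihydroflavonols on the way to pigments, changed in opposite directions as well. A DFR-like gene, gene6228, had 33.0, 38.6 and 38.6 FPKM in VvSUC11-OE fruits, 17.7, 17.5 and 15.7 FPKM in VvSUC12-OE fruits and 21.5, 21.5 and 21.0 FPKM in VvSUC27-OE fruits, against 4.47, 4.85 and 4.60 FPKM in WT fruits. All groups were separate, with VvSUC11-OE highest. Its level was 7.92, 3.66 and 4.60 times that of the WT, and the log2FC were 2.99 (SE 0.087, limma adjusted p = 4.67e-13), 1.82 (SE 0.093, adjusted p = 1.44e-11) and 2.19 (SE 0.086, adjusted p = 3.62e-13). The DFR gene27715 had 26.2 to 29.0 FPKM in VvSUC11-OE, 19.3 to 20.9 FPKM in VvSUC12-OE and 20.4 to 21.2 FPKM in VvSUC27-OE fruits, against 17.8 to 19.7 FPKM in WT fruits, and was called in no line.

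A rare DFR transcript, gene5789, fell, and it alone of the DFR class is placed in flavonoid biosynthesis by KEGG. The stronger gene6228 and gene27715 are placed in no KEGG pathway, so which gene serves this step was not tested. The rare gene5789 had 0, 0 and 1 scaled counts in VvSUC11-OE libraries, 17, 7 and 9 in VvSUC12-OE libraries and 0, 3 and 1 in VvSUC27-OE libraries, against 41, 18 and 29 in WT fruits. It was at least 9.78-fold lower in VvSUC11-OE and VvSUC27-OE fruits. In VvSUC12-OE fruits the log2FC was -1.35 (SE 0.38, limma adjusted p = 0.00588), and that call was lost without VvSUC12-OE replicate 2 or 3 or WT replicate 1 or 3, when the adjusted p was 0.03, 0.0204, 0.0458 and 0.0246. ANS, represented by a leucoanthocyanidin dioxygenase-like gene (gene3119), was among the strongest members in all groups and was called in none. It had 238 to 250 FPKM in VvSUC11-OE, 207 to 218 FPKM in VvSUC12-OE and 179 to 185 FPKM in VvSUC27-OE fruits, against 227 to 230 FPKM in WT fruits.

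Of the reductases that lead to the building units of proanthocyanidins, LAR and 1 ANR gene were low in the transgenic fruits. The class ANR had 4 members, of which 2 were tested, and the other tested member was called in no line. ANR (gene7126) had 0.0374, 0 and 0.0414 FPKM in VvSUC11-OE fruits, 0.0367, 0.0730 and 0.110 FPKM in VvSUC12-OE fruits and 0.192, 0 and 0.0758 FPKM in VvSUC27-OE fruits, against 2.51, 1.24 and 1.54 FPKM in WT fruits. The scaled counts behind these levels were 0 to 4 in the 9 transgenic libraries, against 64, 32 and 39 in the WT libraries, without overlap. It was at least 15.0-fold lower in VvSUC11-OE (limma adjusted p = 1.64e-07) and in VvSUC12-OE fruits (adjusted p = 2.53e-07), and had a log2FC of -4.36 in VvSUC27-OE fruits (SE 0.51, adjusted p = 1.12e-06). LAR, the newly assembled gene Solanum_lycopersicum_newGene_1096, had 1.91, 2.02 and 1.91 FPKM in VvSUC11-OE fruits, 2.43, 2.80 and 2.88 FPKM in VvSUC12-OE fruits and 1.66, 1.51 and 1.45 FPKM in VvSUC27-OE fruits, against 4.98, 5.44 and 5.78 FPKM in WT fruits. The transgenic libraries were all below the WT. It fell in VvSUC11-OE (-1.42, SE 0.15, adjusted p = 7.02e-07) and VvSUC27-OE fruits (-1.83, SE 0.15, adjusted p = 7.57e-09), and its -0.94 in VvSUC12-OE fruits was short of the fold threshold.

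Of 15 tested genes of a fruit identity list, all MADS-box factors, 2 rose and 2 fell in each line, and the 2 that fell are named for ovule factors. The list also holds the AGL61, AGL62 and AGL80 genes that are counted again in the early seed list below. AGL11 (gene15601), a MADS-box factor known for its role in ovules and seeds, had 16.1, 12.2 and 14.4 FPKM in VvSUC11-OE fruits, 35.1, 35.9 and 34.7 FPKM in VvSUC12-OE fruits and 15.4, 19.3 and 19.9 FPKM in VvSUC27-OE fruits, against 96.1, 90.1 and 95.1 FPKM in WT fruits. It fell in each line, with log2FC of -2.75, -1.47 and -2.39, and so did its relative TAGL11 (gene26656), with -1.55, -1.38 and -1.40. The other genes annotated as AGL11, gene11707 and gene2912, were called in no line. The 2 that rose in each line were TDR4 (gene15947), a factor known in tomato for its role in ripening, with log2FC of 1.33, 1.67 and 1.82, and an AGL12-like gene (gene26722), with 2.20, 1.81 and 1.66.

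The files name 29 genes after TRANSPARENT TESTA 12, a transporter family, and they moved both ways: 4 of 24 tested rose and 6 fell in VvSUC11-OE, 1 of 23 rose and 3 fell in VvSUC12-OE, and 3 of 23 rose and 3 fell in VvSUC27-OE fruits. One of them, gene27812, was chosen after its values were seen. It is named after a transporter known in Arabidopsis for loading proanthocyanidin precursors into seed coat vacuoles, and had 0.0358, 0.0761 and 0.0809 FPKM in VvSUC11-OE fruits, 2.52, 2.18 and 2.05 FPKM in VvSUC12-OE fruits and 0.669, 1.08 and 1.12 FPKM in VvSUC27-OE fruits, against 8.61, 6.15 and 9.42 FPKM in WT fruits. It fell in each line, and was at least 92.2-fold lower in VvSUC11-OE fruits.

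The wider seed lists did not move as one. Summed over 25 early seed genes (AGL62-type factors and genes whose names hold endosperm, embryonic or LEC1, LEC14B among them), levels were 112 to 118 FPKM in VvSUC11-OE, 101 to 102 FPKM in VvSUC12-OE and 97.3 to 102 FPKM in VvSUC27-OE fruits, against 108 to 110 FPKM in WT fruits. Of its tested genes, 1 of 10 rose in VvSUC11-OE fruits (gene21556, an embryonic protein DC-8) and 0 of 9 changed in each of the other lines. Summed over 31 late seed genes (storage proteins, oleosins and LEA proteins), levels were 118 to 174 FPKM in VvSUC11-OE, 140 to 166 FPKM in VvSUC12-OE and 47.0 to 50.4 FPKM in VvSUC27-OE fruits, against 127 to 133 FPKM in WT fruits. A single Lea5-like gene (gene14568) held a large part of these sums. Its mean level was 59.4 FPKM in VvSUC11-OE, 128 FPKM in VvSUC12-OE and 33.3 FPKM in VvSUC27-OE fruits, against 111 FPKM in WT fruits. The sums largely follow that gene in VvSUC12-OE, VvSUC27-OE and WT fruits. In VvSUC11-OE fruits the sum did not: its mean was 137 FPKM, against 130 FPKM in WT fruits, though the gene was lower. Of the tested late seed genes, 12 of 17 rose in VvSUC11-OE fruits, 1 of 6 rose and 1 fell in VvSUC12-OE fruits, and 3 of 6 fell in VvSUC27-OE fruits. Genes high in VvSUC11-OE fruits alone passed the filter only in that comparison, so these counts cannot be compared between the lines. An example is gene21941, with 8.87 ± 6.62 FPKM in VvSUC11-OE fruits (SD, n = 3) and 0 in the other groups. In the groups, 2 (VvSUC11-OE), 10 (VvSUC12-OE) and 12 (VvSUC27-OE) of the 31, against 6 in the WT, were listed at 0 in all libraries. The part of seed tissue in the levels of ANR, LAR and the hydroxylases was not tested.

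**Figure D4:**
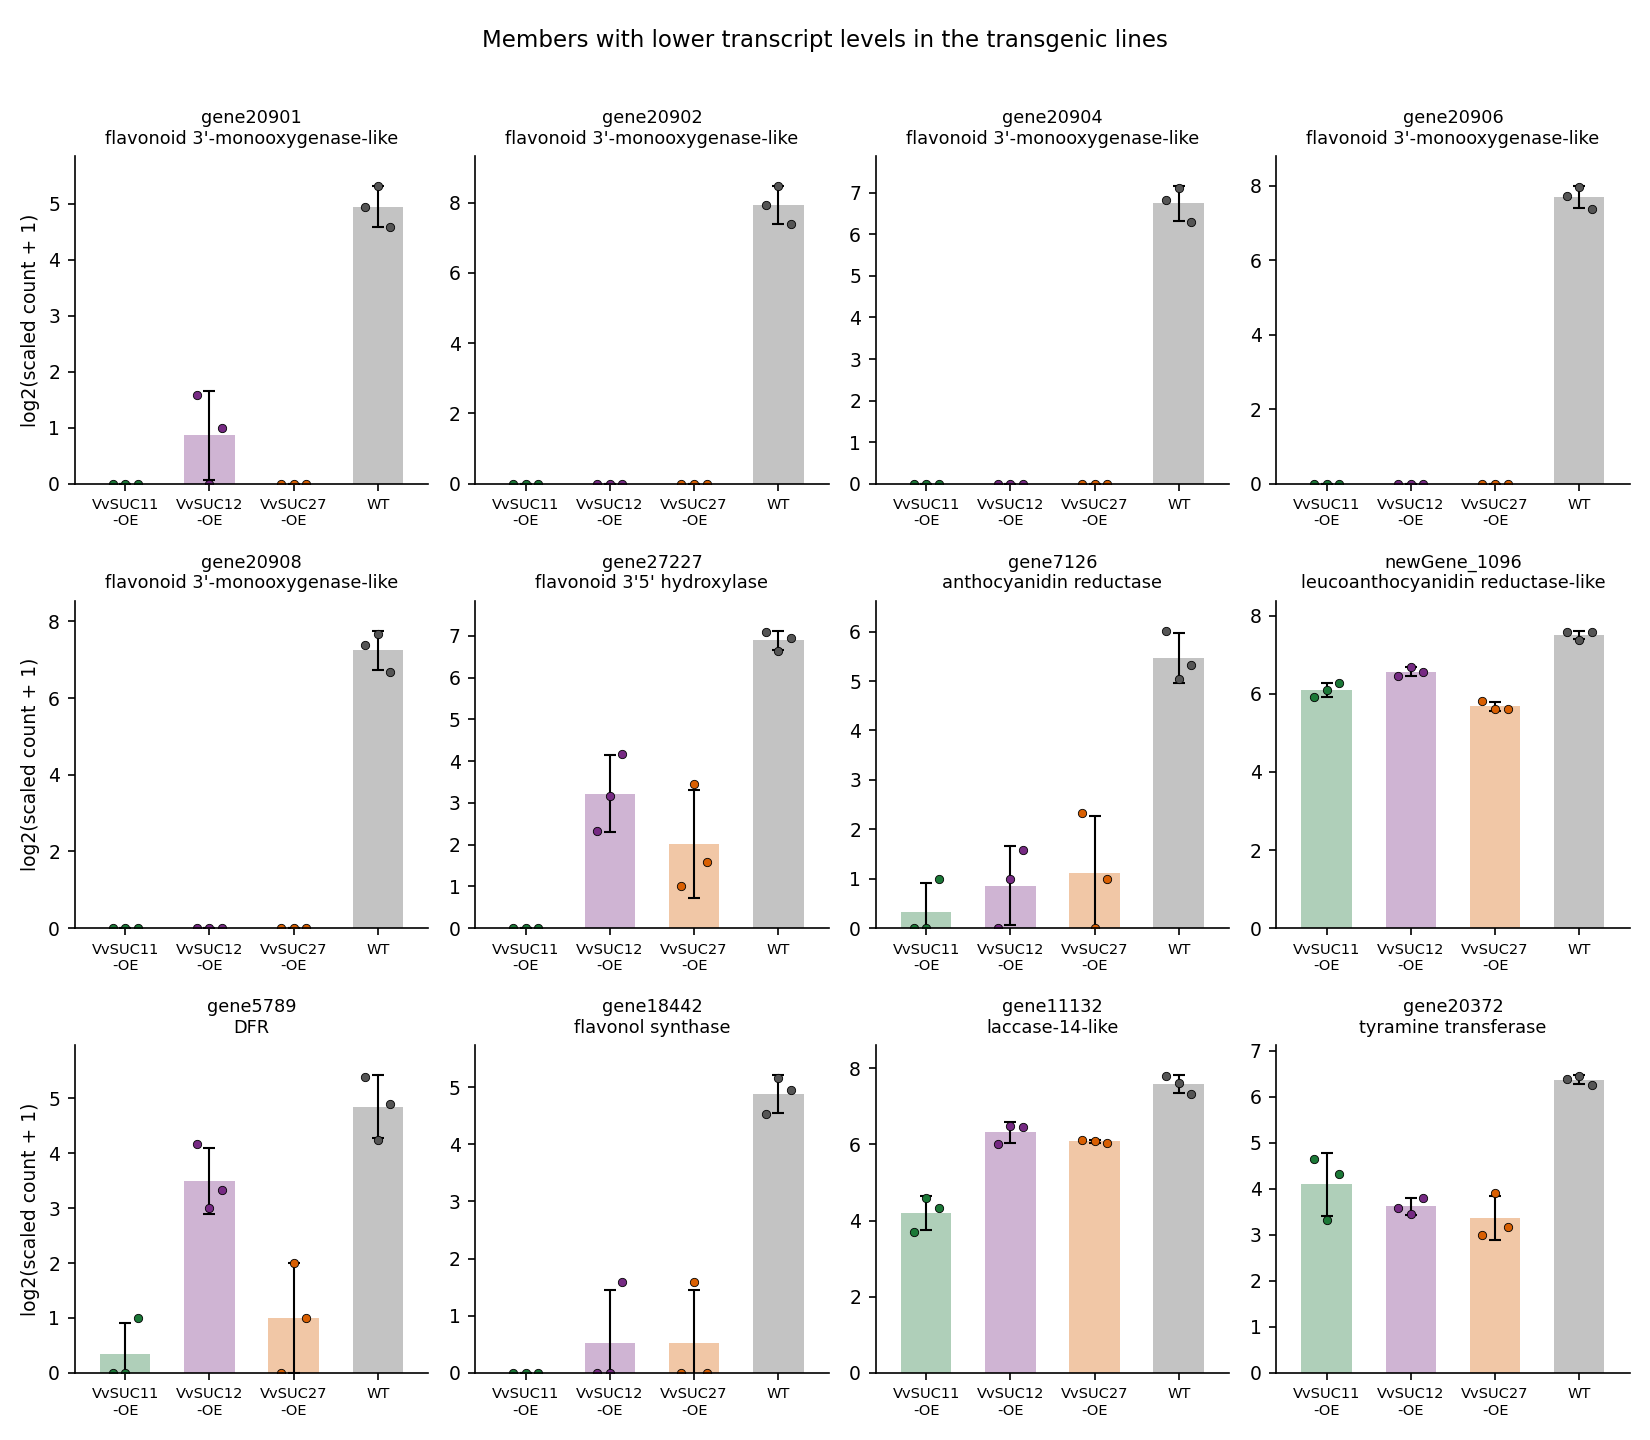
log2(scaled count + 1) of 12 members that were lower in transgenic than in WT fruits, with groups, bars, error bars (SD, n = 3) and dots as libraries; a value of 0 is a scaled count of 0. The F3'H-like gene20902, gene20904, gene20906 and gene20908 are at 0 in all 9 transgenic libraries, and ANR (gene7126) had 0 to 4 scaled counts in them, against 32 to 64 in WT libraries.

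Enzymes that attach sugars and acyl groups to flavonoids and cinnamates held some of the largest increases. Of 20 tested members, 2 rose and 1 fell in VvSUC11-OE fruits, 2 rose and 2 fell in VvSUC12-OE fruits, and 5 rose and 2 fell in VvSUC27-OE fruits. The shares of all tested genes that rose and fell were 7.39% and 7.33%, 3.31% and 5.3%, and 3.8% and 7.21% in these lines. An anthocyanidin 3-O-glucosyltransferase 5-like gene, gene4300, had 57.0, 54.2 and 56.7 FPKM in VvSUC11-OE fruits, 3.50, 3.34 and 3.38 FPKM in VvSUC12-OE fruits and 43.6, 43.8 and 46.6 FPKM in VvSUC27-OE fruits, against 1.65, 1.35 and 0.994 FPKM in WT fruits. All groups were separate, and the mean level was 42.1, 2.56 and 33.6 times that of the WT. The log2FC were 5.41 (SE 0.14, limma adjusted p = 1.34e-13), 1.36 (SE 0.19, adjusted p = 1.22e-05) and 5.10 (SE 0.14, adjusted p = 1.42e-15). What such an enzyme glycosylates in tomato cannot be read from its annotation.

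A related gene, gene25345, had 51.3, 58.1 and 62.9 FPKM in VvSUC11-OE fruits, 21.1, 18.7 and 20.3 FPKM in VvSUC12-OE fruits and 56.6, 56.6 and 59.8 FPKM in VvSUC27-OE fruits, against 12.2, 10.8 and 11.5 FPKM in WT fruits. VvSUC11-OE and VvSUC27-OE fruits overlapped each other and lay above the rest. It rose in both, with log2FC of 2.30 (SE 0.066, limma adjusted p = 3.99e-13) and 2.33 (SE 0.055, adjusted p = 2.95e-16), and had 0.77 in VvSUC12-OE fruits. The most abundant glycosyltransferase, gene22330, had 74.1, 83.8 and 85.6 FPKM in VvSUC11-OE fruits, 44.7, 44.5 and 46.2 FPKM in VvSUC12-OE fruits and 185, 164 and 163 FPKM in VvSUC27-OE fruits, against 55.0, 52.5 and 53.0 FPKM in WT fruits. It passed in VvSUC27-OE fruits (1.66, SE 0.042, adjusted p = 8.86e-16), where a xylosyltransferase-like gene, gene11779, also rose by 1.64, with 46.7 to 49.3 FPKM against 14.7 to 16.6 FPKM in WT fruits.

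The malonyltransferase-like gene29557, named for a step that adds malonyl groups to anthocyanins, had 1.18, 1.19 and 0.656 FPKM in VvSUC11-OE fruits, 8.46, 7.97 and 8.39 FPKM in VvSUC12-OE fruits and 7.69, 8.53 and 7.78 FPKM in VvSUC27-OE fruits, against 0.501, 0.637 and 0.925 FPKM in WT fruits. VvSUC12-OE and VvSUC27-OE fruits were high, and VvSUC11-OE fruits overlapped the WT. The log2FC were 0.52 (SE 0.34, limma adjusted p = 0.196), 3.57 (SE 0.22, adjusted p = 1.54e-10) and 3.56 (SE 0.22, adjusted p = 2.02e-10). Of the decorating enzymes that fell, the cinnamate glucosyltransferase-like gene29566 had 3.20 to 4.32 FPKM in VvSUC12-OE and 3.02 to 3.80 FPKM in VvSUC27-OE fruits, against 8.02 to 9.44 FPKM in WT fruits, with log2FC of -1.22 and -1.34. The glucosyltransferase-like gene7571, with at most 1.94 FPKM, fell in VvSUC12-OE (log2FC -1.66) and VvSUC27-OE fruits (-3.49), and the VvSUC12-OE call was lost without VvSUC12-OE replicate 1 or 2 or WT replicate 2 (adjusted p = 0.0124, 0.0263 and 0.0384). The sulfotransferase-like gene8855, named for a step on flavonols, had 38.0 to 41.0 FPKM in VvSUC11-OE, 56.9 to 58.3 FPKM in VvSUC12-OE and 75.4 to 78.3 FPKM in VvSUC27-OE fruits, against 62.5 to 63.5 FPKM in WT fruits, and was called in no line. The fall of gene17922 in VvSUC11-OE fruits, -1.04, rested on VvSUC11-OE replicate 3, without which it was -0.85.

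The monolignol branch was the largest group, with 36 members. In VvSUC11-OE fruits 4 of 32 tested members rose and 3 fell, in VvSUC12-OE fruits 1 rose and 1 fell, and in VvSUC27-OE fruits 1 rose and 2 fell. Over all tested genes 7.39% rose and 7.33% fell in VvSUC11-OE, 3.31% and 5.3% in VvSUC12-OE, and 3.8% and 7.21% in VvSUC27-OE fruits. The counts of this branch are near such shares. Cinnamoyl-CoA reductase (CCR, gene12145), which commits the pathway to monolignols, had 180 to 183 FPKM in VvSUC11-OE, 184 to 187 FPKM in VvSUC12-OE and 172 to 181 FPKM in VvSUC27-OE fruits, against 212 to 220 FPKM in WT fruits. All transgenic libraries were lower, but the log2FC of -0.24, -0.26 and -0.29 were far under the fold threshold. The main hydroxycinnamoyl transferase (HCT, gene19314), which makes the shikimate esters, had 35.4, 38.1 and 34.1 FPKM in VvSUC27-OE fruits and 18.6 to 22.8 FPKM in all other libraries, with a log2FC of 0.81 (SE 0.061, limma adjusted p = 3.17e-09) against the WT. The leading genes for caffeoylshikimate esterase (CSE, gene14202), caffeoyl-CoA O-methyltransferase (CCoAOMT, gene11151) and cinnamyl alcohol dehydrogenase (CAD, gene3313) were called in no line.

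CSE, which frees caffeic acid from its shikimate ester, had 9 members with unlike patterns. One of them, gene22828, had 5.13, 4.74 and 4.85 FPKM in VvSUC11-OE fruits, 21.8, 21.5 and 24.0 FPKM in VvSUC12-OE fruits and 20.8, 24.6 and 24.4 FPKM in VvSUC27-OE fruits, against 9.72, 9.42 and 9.67 FPKM in WT fruits. The WT lay between VvSUC11-OE and the other lines without overlap. The log2FC were -0.97 (SE 0.095, limma adjusted p = 4.01e-07), short of the fold threshold, 1.19 (SE 0.064, adjusted p = 2.82e-11) and 1.28 (SE 0.071, adjusted p = 4.89e-11). In gene10073 the order was another: 74.0, 71.0 and 72.8 FPKM in VvSUC11-OE fruits, 45.1, 49.5 and 47.5 FPKM in VvSUC12-OE fruits and 24.8, 25.8 and 28.5 FPKM in VvSUC27-OE fruits, against 61.8, 58.5 and 67.0 FPKM in WT fruits. It fell in VvSUC27-OE fruits (-1.26, SE 0.056, adjusted p = 2.04e-12). The weak gene4764 rose in VvSUC11-OE fruits by 2.53.

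CCoAOMT, which adds a methyl group on the way to the monolignols, had 2 members that rose in VvSUC11-OE fruits and 0 called in the other lines. Their log2FC there were 1.22 (gene24520) and 1.77 (gene6548). In VvSUC11-OE fruits gene24520 had 25.4 to 27.7 FPKM, against 10.6 to 12.3 FPKM in WT fruits, and gene6548 had 17.2 to 20.9 FPKM, against 5.18 to 5.93 FPKM in WT fruits. For both genes the groups did not overlap.

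CAD, which reduces the aldehydes to monolignols, fell in minor members. The gene annotated as CAD 6 (gene4013) had 0.103, 0 and 0 FPKM in VvSUC11-OE fruits, 0.632, 0.595 and 0.351 FPKM in VvSUC12-OE fruits and 1.39, 1.35 and 1.44 FPKM in VvSUC27-OE fruits, against 2.38, 1.48 and 1.90 FPKM in WT fruits. It was at least 16.9-fold lower in VvSUC11-OE fruits (limma adjusted p = 2.55e-07) and fell by 1.86 in VvSUC12-OE fruits. In VvSUC11-OE fruits gene7817 (CAD 9) and gene5952 (a CCR) fell, with log2FC of -1.19 and -1.02, and the call of gene5952 was lost without VvSUC11-OE replicate 1 or 3 or WT replicate 3, at -0.86, -0.94 and -0.97.

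Laccases, the copper enzymes that polymerise monolignols, were expressed weakly, with a summed level of 17.3 ± 1.40 FPKM in VvSUC11-OE, 11.1 ± 0.976 FPKM in VvSUC12-OE and 12.8 ± 0.495 FPKM in VvSUC27-OE fruits, against 16.0 ± 1.54 FPKM in WT fruits (SD, n = 3 each; 23 genes). Among all tested genes 7.39% rose and 7.33% fell in VvSUC11-OE, 3.31% and 5.3% in VvSUC12-OE, and 3.8% and 7.21% in VvSUC27-OE fruits. In VvSUC11-OE fruits 5 of 13 tested laccases rose and 2 fell, in VvSUC12-OE fruits 1 of 10 rose and 2 fell, and in VvSUC27-OE fruits 0 of 10 rose and 2 fell. Of those that rose in VvSUC11-OE fruits, gene14957 and gene16571 passed the filter in no other line. Neither did gene13847 in VvSUC12-OE nor gene15018 in VvSUC27-OE fruits. The counts of rises therefore cannot be compared between the lines. The most abundant one, laccase-3-like (gene16619), had 6.02, 7.68 and 6.32 FPKM in VvSUC11-OE fruits, 2.42, 1.53 and 2.20 FPKM in VvSUC12-OE fruits and 2.52, 1.88 and 1.92 FPKM in VvSUC27-OE fruits, against 1.12, 1.26 and 0.988 FPKM in WT fruits. All lines were above the WT, VvSUC11-OE most, and the log2FC of 2.57 (SE 0.16, limma adjusted p = 2.23e-09) passed in that line, while 0.84 and 0.91 did not in VvSUC12-OE and VvSUC27-OE fruits.

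Laccase-14-like genes went the other way. One of them, gene11132, had 0.309, 0.819 and 0.590 FPKM in VvSUC11-OE fruits, 1.80, 2.50 and 2.55 FPKM in VvSUC12-OE fruits and 1.83, 1.86 and 1.83 FPKM in VvSUC27-OE fruits, against 6.29, 5.81 and 4.55 FPKM in WT fruits. All transgenic libraries were lower than all WT libraries, and it fell in each line, with log2FC of -3.38, -1.26 and -1.50 (limma adjusted p = 8.51e-09, 2.47e-06 and 1e-07). Its relative gene11136 had 0, 0 and 0 scaled counts in VvSUC11-OE libraries, 4, 3 and 7 in VvSUC12-OE libraries and 1, 0 and 4 in VvSUC27-OE libraries, against 56, 40 and 38 in WT fruits, and was at least 14.9-fold lower in VvSUC11-OE fruits. Among rare laccases, the laccase-5-like gene15018 had 62, 64 and 48 scaled counts in VvSUC11-OE libraries, 19, 15 and 16 in VvSUC12-OE libraries and 10, 6 and 7 in VvSUC27-OE libraries, against 4, 4 and 3 in WT fruits. It rose by 3.66 in VvSUC11-OE and by 1.92 in VvSUC12-OE fruits, and was not tested in VvSUC27-OE fruits. In VvSUC11-OE fruits laccase-4-like gene16571 was at least 5.33-fold higher and laccase-12-like gene14957 rose, with 15, 18 and 21 scaled counts in VvSUC11-OE fruits, against 3, 3 and 2 in WT fruits. The rise of laccase-12 (gene13847), 1.82 in VvSUC11-OE fruits, was lost without VvSUC11-OE replicate 2 (adjusted p = 0.0166).

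Genes named for xylem, phloem or the cellulose synthases of secondary walls were measured beside these classes. Summed over 17 genes, their level was 159 to 175 FPKM in VvSUC11-OE, 150 to 155 FPKM in VvSUC12-OE and 149 to 169 FPKM in VvSUC27-OE fruits, against 137 to 151 FPKM in WT fruits. Of the tested ones, 4 of 13 rose and 1 fell in VvSUC11-OE fruits, 2 of 13 rose and 1 fell in VvSUC12-OE fruits, and 0 of 12 changed in VvSUC27-OE fruits. Their part in the results on laccases and CCoAOMT was not tested.

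Esters and amides of the hydroxycinnamic acids form a side branch. The quinate transferase HQT (gene16926), which makes chlorogenic acid in tomato, had 82.6 to 90.2 FPKM in VvSUC11-OE, 91.5 to 99.3 FPKM in VvSUC12-OE and 85.1 to 89.7 FPKM in VvSUC27-OE fruits, against 73.3 to 77.6 FPKM in WT fruits, and was called in no line. A tyramine hydroxycinnamoyl transferase, gene20372, whose products are amides laid down in cell walls after wounding, had 3.28, 1.33 and 2.84 FPKM in VvSUC11-OE fruits, 1.55, 1.47 and 1.89 FPKM in VvSUC12-OE fruits and 0.986, 1.77 and 1.19 FPKM in VvSUC27-OE fruits, against 10.8, 10.9 and 9.77 FPKM in WT fruits. The transgenic groups overlapped each other and lay below the WT. It fell in each line, with log2FC of -2.28, -2.76 and -3.01 (limma adjusted p = 9.74e-06, 1.98e-08 and 4.23e-08). The other tyramine transferases by annotation, gene20375 and gene20377, were called in no line. In gene20377 the mean level was 2.32 FPKM in VvSUC11-OE, 2.13 FPKM in VvSUC12-OE and 1.34 FPKM in VvSUC27-OE fruits, against 1.74 FPKM in WT fruits. The spermidine transferase-like gene20773 was at least 7.44-fold higher in VvSUC11-OE fruits.

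9 members are named after isoflavone enzymes of legumes, and what they do in tomato is not annotated in the files. The strongest of them, gene24606, had 63.6 to 67.1 FPKM in VvSUC11-OE, 90.4 to 95.5 FPKM in VvSUC12-OE and 86.0 to 88.4 FPKM in VvSUC27-OE fruits, against 78.4 to 81.6 FPKM in WT fruits, and was called in no line, as was gene7880, a flavonoid oxidoreductase of unassigned step. In this set gene24607, an isoflavone reductase homolog, had 0.249, 0.258 and 0.136 FPKM in VvSUC11-OE fruits, 0.496, 0.166 and 0.250 FPKM in VvSUC12-OE fruits and 2.18, 2.41 and 2.08 FPKM in VvSUC27-OE fruits, against 0.874, 1.25 and 0.752 FPKM in WT fruits. VvSUC27-OE fruits lay above and the other lines below the WT. The log2FC were -2.06 (SE 0.38, limma adjusted p = 0.000244), -1.73 (SE 0.43, adjusted p = 0.00261) and 1.24 (SE 0.25, adjusted p = 0.00037), and the call in VvSUC12-OE fruits was lost without VvSUC12-OE replicate 2 (adjusted p = 0.0138) or WT replicate 2 (adjusted p = 0.0196). The isoflavone 2'-hydroxylase-like gene11706 fell in VvSUC11-OE (-1.35) and VvSUC12-OE fruits (-1.07), and the VvSUC12-OE call was lost without VvSUC12-OE replicate 2, when the fold was just short of the threshold. Of its relatives, gene29329 and gene11711 rose in VvSUC11-OE fruits by 1.20 and 1.53, and the call of gene11711 was lost without VvSUC11-OE replicate 1 (adjusted p = 0.0101). A reductase-like gene, gene11925, fell in the 3 lines, with log2FC of -1.11, -1.57 and -1.39. Its calls were lost without WT replicate 3 in each line (adjusted p = 0.0321, 0.0162 and 0.0149), and in VvSUC11-OE also without VvSUC11-OE replicate 1 (adjusted p = 0.0248) or 2 (0.0133) or WT replicate 1 (0.0153).

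The lines were then compared with each other. In VvSUC11-OE against VvSUC12-OE fruits 18 of 111 tested members were higher (16.2%) and 5 lower (4.5%), where 5.51% and 4.74% of all tested genes were. In VvSUC27-OE against VvSUC11-OE fruits 15 of 114 were higher (13.2%) and 14 lower (12.3%), against 3.67% and 6.99% of all genes. In VvSUC27-OE against VvSUC12-OE fruits 15 of 109 were higher (13.8%) and 1 lower (0.917%), against 2.64% and 4.16%. The median log2FC of the members was 0.35, 0.00 and 0.23, and that of all tested genes 0.01, 0.01 and 0.00.

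CHS separated the lines in these tests as well. CHS1B (gene23253) was higher by 1.70 on the log2 scale in VvSUC27-OE than in VvSUC11-OE fruits (SE 0.046, limma adjusted p = 5.35e-15) and by 2.39 than in VvSUC12-OE fruits (SE 0.031, adjusted p = 1.95e-20). For CHS2 (gene13964) the difference of 1.55 between VvSUC27-OE and VvSUC12-OE fruits passed (SE 0.029, adjusted p = 2.38e-18). CHI 3 (gene13833) was higher by 1.30 and 2.13 in VvSUC27-OE than in VvSUC11-OE and VvSUC12-OE fruits, and FLS (gene26361) by 1.07 than in VvSUC12-OE fruits. The glucosyltransferase-like gene4300 split the lines otherwise: it was higher by 4.05 in VvSUC11-OE than in VvSUC12-OE fruits (SE 0.069, adjusted p = 1.35e-18) and by 3.74 in VvSUC27-OE than in VvSUC12-OE fruits (SE 0.069, adjusted p = 2.02e-18). The malonyltransferase-like gene29557 had a log2FC of -3.05 in VvSUC11-OE against VvSUC12-OE fruits (SE 0.21, adjusted p = 4.88e-10) and higher by 3.04 in VvSUC27-OE than in VvSUC11-OE fruits.

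Among supply, monolignol and laccase members the line that stood apart depended on the gene. PAL gene25626 had a log2FC of -1.27 in VvSUC11-OE against VvSUC12-OE fruits (SE 0.043, limma adjusted p = 1.32e-14) and of 1.58 in VvSUC27-OE against VvSUC11-OE fruits (SE 0.042, adjusted p = 3.55e-15). CSE gene22828 had -2.16 and 2.24 in the same comparisons (adjusted p = 6.26e-14 and 7e-13), and CSE gene10073 had -1.42 in VvSUC27-OE against VvSUC11-OE fruits. Laccase gene16619 was higher in VvSUC11-OE than in VvSUC12-OE fruits by 1.73 and had -1.66 in VvSUC27-OE against VvSUC11-OE fruits. The single member lower in VvSUC27-OE than in VvSUC12-OE fruits was PAL gene7329, with -2.47 (SE 0.24, adjusted p = 7.35e-08).

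**Figure D5:**
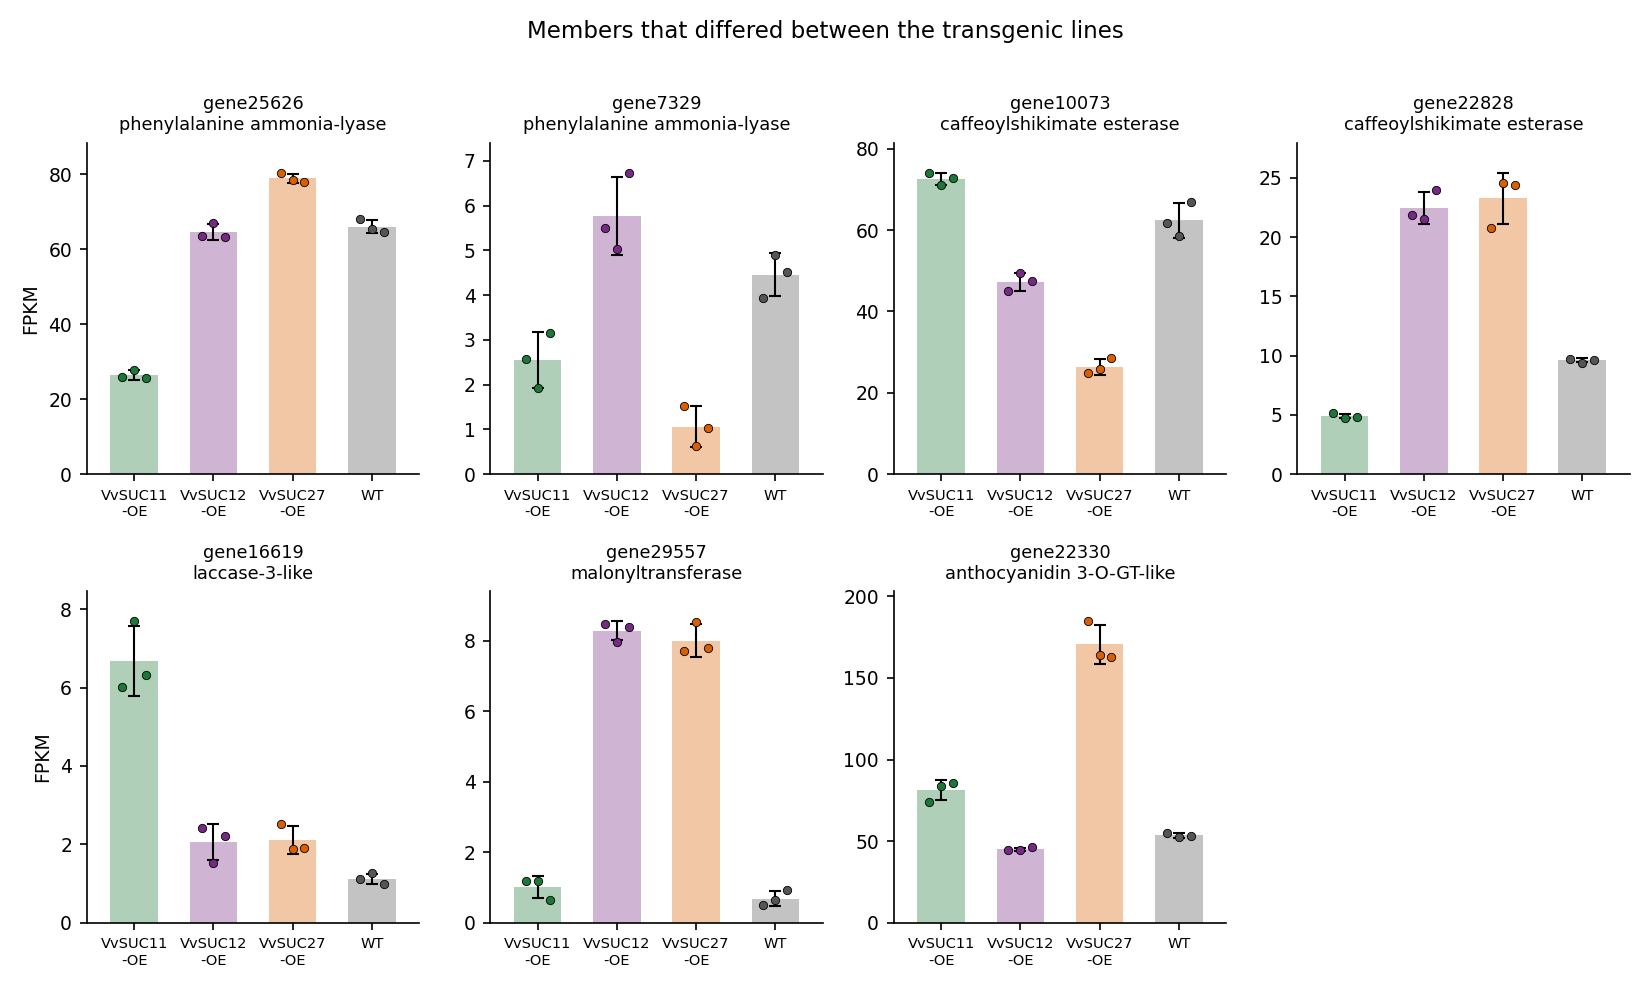
FPKM of 7 members that differed between the transgenic lines, with bars as means, error bars as SD over 3 libraries and dots as libraries. PAL gene25626 is lowest in VvSUC11-OE fruits (25.7 to 27.9 FPKM), and the malonyltransferase-like gene29557 is high in VvSUC12-OE and VvSUC27-OE fruits alone of the 4 groups.

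The order of the groups over the whole pathway was mixed. Of the 128 members tested in any comparison with the WT, the mean FPKM was highest in VvSUC11-OE fruits for 44, in VvSUC12-OE fruits for 13, in VvSUC27-OE fruits for 40 and in WT fruits for 31. It was lowest in VvSUC11-OE fruits for 37, in VvSUC12-OE fruits for 31, in VvSUC27-OE fruits for 24 and in WT fruits for 36. In the KEGG flavonoid pathway (ko00941) 6 of 20 tested members rose and 4 fell in VvSUC11-OE fruits, 2 rose and 3 fell in VvSUC12-OE fruits, and 4 rose and 4 fell in VvSUC27-OE fruits. In the KEGG phenylpropanoid pathway (ko00940) 6 of 35 rose and 4 fell in VvSUC11-OE fruits, and 1 of 34 rose and 2 fell in each of the other lines. Over all tested genes 7.39% rose and 7.33% fell in VvSUC11-OE, 3.31% and 5.3% in VvSUC12-OE, and 3.8% and 7.21% in VvSUC27-OE fruits. The ko00940 counts of VvSUC12-OE and VvSUC27-OE fruits are near such shares.

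Genes around the pathway were read from lists. Of 25 tested genes of the shikimate pathway and of phenylalanine synthesis, which supply PAL with its substrate, 0 rose in any line, 2 fell in VvSUC11-OE fruits and 3 fell in each of the other lines. Arogenate dehydrogenase (gene17104), which diverts the shared precursor to tyrosine, fell to 23.8 ± 1.31 FPKM in VvSUC11-OE, 35.5 ± 1.69 FPKM in VvSUC12-OE and 25.0 ± 0.339 FPKM in VvSUC27-OE fruits, against 78.0 ± 1.32 FPKM in WT fruits (SD, n = 3 each). Arogenate dehydratase (gene5383), which makes phenylalanine, fell in VvSUC11-OE fruits by 1.40. Of 12 tested genes for steps whose annotation escapes the word rule, 2 rose and 2 fell in VvSUC11-OE fruits, 1 rose and 3 fell in VvSUC12-OE fruits, and 1 rose and 2 fell in VvSUC27-OE fruits. Beside F3H, the increase in VvSUC11-OE fruits was that of gene5738, a P450 named 84A1 like the ferulate 5-hydroxylase of lignin synthesis (1.58). A second F3H-like gene, gene16213, fell in the 3 lines, with log2FC of -2.75, -2.48 and -3.02. So did the P450 98A2-like gene24943, with -2.31, -3.71 and -3.37. In VvSUC12-OE fruits gene13774, named after a 2-hydroxyisoflavanone dehydratase, also fell, with -1.06, a call that was lost without VvSUC12-OE replicate 2 (-0.98) or WT replicate 1 (-0.99).

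Of 49 genes named for regulators and transporters of flavonoids, 35 were tested in VvSUC11-OE fruits, where 5 rose and 7 fell. In VvSUC12-OE fruits 1 of 33 rose and 5 fell, and in VvSUC27-OE fruits 5 of 35 rose and 6 fell. A MYB12-like gene (gene28677), related to the factor that activates CHS and FLS in tomato, had 1.62, 1.54 and 1.30 FPKM in VvSUC11-OE fruits, 0.218, 0.659 and 0.922 FPKM in VvSUC12-OE fruits and 5.24, 4.99 and 6.31 FPKM in VvSUC27-OE fruits, against 1.30, 0.946 and 1.22 FPKM in WT fruits. The VvSUC27-OE libraries were the highest without overlap, with a log2FC of 2.17 (SE 0.2, limma adjusted p = 6.94e-08), and the other lines were not called. The gene annotated as MYB12 itself (gene1463) had 19.2, 19.8 and 21.5 FPKM in VvSUC11-OE fruits, 15.9, 15.6 and 14.8 FPKM in VvSUC12-OE fruits and 14.9, 19.5 and 13.3 FPKM in VvSUC27-OE fruits, against 9.55, 10.4 and 10.7 FPKM in WT fruits. It stayed under the fold threshold in each line, with log2FC of 0.99, 0.57 and 0.63 (limma adjusted p = 6.14e-08, 1.66e-05 and 0.000203), and its WT libraries were the lowest without overlap. A MYB113-like gene (gene25636), named after an activator of anthocyanin genes in Arabidopsis, had 4.65, 3.56 and 3.13 FPKM in VvSUC27-OE fruits, against 0.227, 0.149 and 0.690 FPKM in WT fruits, and rose by 3.52. The Myb4-like gene23121, of a family that includes repressors of phenylpropanoid genes, fell in the 3 lines, with log2FC of -1.04, -1.52 and -1.32, and without VvSUC11-OE replicate 2 its value in that line was -0.98. The other Myb4-like genes (gene14114, gene16786, gene18446 and gene27739) and the other MYB113-like gene, gene25632, were not called against the WT in any line. Of 26 genes named for dirigent proteins, which guide the coupling of monolignols, or for enzymes of lignan synthesis, 2 of 11 tested rose in VvSUC11-OE fruits (gene18190 and gene3646), 1 of 9 fell in VvSUC12-OE fruits (gene15260), and 1 of 10 rose in VvSUC27-OE fruits (gene3646).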

How the data were processed

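The RNA-seq libraries of 5 DPA fruits were mapped by the authors with TopHat2 to the tomato assembly SL2.50. From the authors came, for each library, FPKM made with cuffnorm and counts. Per the file headers the second are counts, but they behave as a score: library totals differed by 1.06 times, and in WT replicate 1 the whole number 6 was held by 4 genes, against 239 at 5 and 199 at 7. The deposited counts had therefore been scaled and rounded before deposit, and no count model was used. Columns with the authors' own EBSeq comparisons (6 of them) were not used. The annotation version is not given in the sources used here.

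Differences were fitted with limma 3.58.1 (lmFit, eBayes with trend, R 4.3.3) on log2(scaled count + 1) in the 6 libraries compared. Genes with at least 10 scaled counts in 3 libraries were tested, and p-values were adjusted over all tested genes (Benjamini-Hochberg). A gene was called at an adjusted p under 0.01 and a log2FC beyond 1. If no library of a group exceeded 3 scaled counts, the fold was taken against 3 per library and is a lower bound. Other steps used Python 3.11.15, pandas 2.3.3 and numpy 2.4.6.

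The members and lists were chosen with earlier results of these data known. Genes named with values were the most abundant member of each class (24), up to 5 called members at each end of a comparison with the WT and up to 2 at each end of a comparison between lines (groups not overlapping, mean of at least 50 scaled counts), and members so called in all 3 lines, 39 in all. Results on 1 enzyme class are not reported here, though its members stay in the counts. The remaining members and the list genes were named after their values were seen. Names were matched to RefSeq symbols for 48 of the 50 members with a KEGG gene identifier. Alternatives were no filter, a mean of at least 50 scaled counts, a pseudocount of 5, equal library totals, log2(FPKM + 0.1), all 12 libraries, the replicate number as a block, an adjusted p of 0.05, and each library left out in turn.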

Additional observations from a re-analysis of the deposited data

Results flagged for a closer look

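Differences between the lines that passed both thresholds (limma, adjusted p under 0.01 and log2FC beyond 1) were taken as differences of the lines' effects, since each line is set against the same WT libraries. Given here are the members singled out by the rule for named genes, with gene25626 and gene24607. They are 4 of the 18 members called higher and 5 of 5 lower in VvSUC11-OE against VvSUC12-OE, 9 of 15 and 4 of 14 in VvSUC27-OE against VvSUC11-OE, and 8 of 15 and 1 of 1 in VvSUC27-OE against VvSUC12-OE fruits. In VvSUC11-OE against VvSUC12-OE fruits the log2FC were 4.05 for gene4300 (anthocyanidin 3-O-glucosyltransferase 5-like), 1.73 for gene16619 (laccase-3-like), 1.53 for gene25345 (glucosyltransferase-like) and 1.17 for gene6228 (DFR-like). They were -3.05 for gene29557 (malonyltransferase-like), -2.16 for gene22828 (CSE), -2.11 for gene11132 (laccase-14-like), -1.27 for gene25626 (PAL) and -1.17 for gene7329 (PAL).

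In VvSUC27-OE against VvSUC11-OE fruits the log2FC were 3.30 for gene24607 (isoflavone reductase homolog), 3.04 for gene29557, 2.24 for gene22828, 1.88 for gene11132, 1.70 for gene23253 (CHS1B), 1.58 for gene25626, 1.30 for gene13833 (CHI 3), 1.10 for gene22330 (glucosyltransferase-like) and 1.02 for gene8855 (flavonol sulfotransferase-like). They were -1.66 for gene16619, -1.42 for gene10073 (CSE), -1.30 for gene7329 and -1.04 for gene27373 (4CL-like).

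In VvSUC27-OE against VvSUC12-OE fruits the log2FC were 3.74 for gene4300, 2.96 for gene24607, 2.39 for gene23253, 2.13 for gene13833, 1.94 for gene22330, 1.56 for gene25345, 1.55 for gene13964 (CHS2) and 1.07 for gene26361 (FLS), and -2.47 for gene7329. Each line was represented by 1 line of plants and VvSUC27-OE by another generation, so transgene, line and generation cannot be told apart in these differences.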

How the results depend on the processing

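Of the counts of members called, 158 values under alternative settings stayed within 1.5 times the reported count, 7 were lower and 3 higher. All 7 lower ones came with a minimum mean of 50 scaled counts, which leaves fewer genes to test: against the WT, 14 members rose and 12 fell in VvSUC11-OE, 8 fell in VvSUC12-OE and 10 fell in VvSUC27-OE fruits, and between lines 9 were higher in VvSUC11-OE than in VvSUC12-OE, and 9 were higher and 6 lower in VvSUC27-OE than in VvSUC11-OE fruits. With no low-value filter 10 were lower in VvSUC11-OE than in VvSUC12-OE fruits and 2 in VvSUC27-OE than in VvSUC12-OE fruits, and 2 also at an adjusted p of 0.05. When 1 library at a time was left out, the members that rose were 22 to 23 in VvSUC11-OE, 7 to 9 in VvSUC12-OE and 13 to 15 in VvSUC27-OE fruits, and those that fell 20 to 22, 15 to 19 and 18 to 19. Between lines the higher and lower members were 17 to 18 and 5 to 6 (VvSUC11-OE against VvSUC12-OE), 14 to 16 and 12 to 15 (VvSUC27-OE against VvSUC11-OE) and 14 to 16 and 1 (VvSUC27-OE against VvSUC12-OE). For single genes 2816 values kept their call, 42 lost it and 5 gained it. The 9 that turned sign were near 0 and never called: gene11151 in VvSUC27-OE was 0.00 on FPKM, 0.02 without VvSUC27-OE replicate 2 and 0.00 without WT replicate 1, gene16649 in VvSUC12-OE was 0.03 with equal totals, 0.02 without VvSUC12-OE replicate 3 or WT replicate 1 and -0.06 without VvSUC12-OE replicate 1, gene21476 in VvSUC11-OE lay between -0.03 (without WT replicate 2) and 0.23 (without WT replicate 3), and gene7880 in VvSUC11-OE was 0.00 with equal totals, 0.02 without VvSUC11-OE replicate 1 and -0.10 without VvSUC11-OE replicate 2. The cause was not tested.

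Samples share replicate numbers but not their deviations: the correlation of same-numbered samples lay between -0.0525 and 0.0316 over 18 pairs, and 5 samples correlated best with their own number. With the replicate block the counts were those reported: 23 higher and 22 lower, 7 and 19, and 13 and 19 in the lines against the WT, and 18 and 5, 15 and 14, and 15 and 1 in the comparisons between lines as ordered above. Medians of the log2FC were unchanged to 2 decimals with genes at their bounds in place of their fitted values. The bounds lie on the same side of the median as the fitted values, so this could not have come out otherwise. Members under 10 scaled counts could not be assessed at this depth.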

Other observations

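Further lists of markers were summed to describe what the fruits held. For 30 genes of a fruit identity list (MADS-box factors, with the AGL61, AGL62 and AGL80 genes that the early seed list also counts) the summed level was 1032 to 1068 FPKM in VvSUC11-OE, 1016 to 1049 FPKM in VvSUC12-OE and 859 to 884 FPKM in VvSUC27-OE fruits, against 891 to 918 FPKM in WT fruits. For 26 genes named for anthers or pollen it was 2487 to 2514, 2447 to 2520 and 2259 to 2284 FPKM, against 2209 to 2276 FPKM in WT fruits, and for 2 genes of ripe fruit 64.0 to 67.6, 29.1 to 30.4 and 39.4 to 41.0 FPKM, against 28.2 to 29.3 FPKM. Among the transporters named after TRANSPARENT TESTA 12, gene7006 was listed at 0 in WT fruits and was at least 16.8-fold higher in VvSUC11-OE, 20.1-fold in VvSUC12-OE and 21.2-fold in VvSUC27-OE fruits, while the MYB5-like gene69 was at least 6.89-fold lower in VvSUC27-OE fruits.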
